A study of Mus musculus with 8 samples.

Results

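The proteasome subunit genes are described here in mouse kidney after BPA, the abbreviation generally used for bisphenol A, and after vehicle. They were taken by name: protein-coding genes called Psma, Psmb, Psmc, Psmd, Psme, Psmf or Psmg with a number, leaving out the immunoproteasome subunits Psmb8, Psmb9 and Psmb10. The rule found 45 of the 54532 genes in the deposited table, and 43 of them reached the mean of 0.5 FPKM over the 8 libraries that was required for testing. FPKM is a read count scaled by gene length and library size. Psma8, whose protein is known from the testis-type core, had 0 to 0.374 FPKM per library. Psmb11, whose protein is known from thymic epithelium, was above 0 in 1 library, at 0.0256 FPKM. Summed over libraries, Psma8 had 17 reads in vehicle and 20 in BPA, and Psmb11 had 0 and 2.

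The study sequenced polyadenylated RNA from kidneys of ICR mice, an outbred laboratory stock, in 4 libraries labelled BPA and 4 labelled vehicle. The labels used here give no dose, route, duration, age or sex, and they do not say that each library came from its own animal. P-values therefore measure only the spread between these libraries, which may be technical. Recovered reads were 15944081 to 17351540 per library, and between 17174 and 20845 genes were above 0, fewest in BPA replicate 4. All 8 markers of proximal tubule, the main epithelium of the kidney cortex, were present, with a summed level of 3386 to 4438 FPKM in vehicle and 3594 to 4922 FPKM in BPA. Vehicle replicate 4 stood apart in markers of other tissues: 30.4 FPKM summed over 6 lymphocyte genes against at most 0.977 in the other vehicle libraries, 225 against at most 0.832 for skeletal muscle and 60.1 against at most 26.5 for fat. That 26.5 FPKM was vehicle replicate 2, which was also high for fat, against 0.193 and 5.41 in vehicle replicates 1 and 3. Of the fat genes, Ucp1 was higher in vehicle replicate 2 (7.18 FPKM) than in replicate 4 (1.41), and the rest were highest in replicate 4. Vehicle replicates 3 and 4 had 13.4 and 11.2 FPKM over 4 podocyte genes, against 46.1 and 47.8 in vehicle replicates 1 and 2. In such bulk libraries, fewer cells of a type and less RNA per cell cannot be told apart.

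The 26S proteasome degrades proteins tagged with ubiquitin. Its 20S core is a barrel of alpha rings (Psma genes), which gate the entry, around beta rings (Psmb genes), in which Psmb5, Psmb6 and Psmb7 carry the chymotrypsin-like, caspase-like and trypsin-like active sites. The 19S cap recognises, deubiquitinates and unfolds substrates with a ring of ATPases (Psmc genes) and a set of non-ATPase subunits (Psmd genes). Psme genes encode activators that open the core, Psmf1 encodes the core inhibitor PI31, and Psmg genes, with Psmd5, Psmd9 and Psmd10, encode assembly chaperones. The transcription factor NRF1 (Nfe2l1) is known to raise proteasome genes together through antioxidant response elements when proteasome activity falls short.

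No proteasome gene was called between BPA and vehicle by limma at a Benjamini-Hochberg adjusted p under 0.05, where 0.00748% of all tested genes (1 of 13376) were called. At an unadjusted p under 0.05, 3 of 43 members were lower in BPA, namely Psmd3, Psmb5 and Psmb4, and 0 were higher; limma-voom on reads recovered from the FPKM gave 4 lower and 0 higher. The same threshold held 6.83% of all tested genes as lower and 4.18% as higher, so the members' share of 6.98% lay near the background. With limma-voom, 6.29% of all tested genes were lower. BPA and vehicle libraries did not overlap for 2 members, both lower (Psmb4 and Psmd3), against 4.66% of all tested genes lower and 3.23% higher. All changes below are BPA minus vehicle on the log2(FPKM + 1) scale.

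The estimates were small and mostly of one sign. The estimate was negative for 39 of 43 members, against 52.0% of all tested genes, with a median of -0.10 against -0.01 for all genes. Among the 3162 genes whose vehicle level lay between 10.6 and 63.2 FPKM, near that of the members, the median was -0.06. The 95% interval lay within 1 log2 unit of 0 for each of the 43 members, and the estimate lay within 0.25 of 0 for 34. The sign count rested in part on a few libraries: leaving out BPA replicate 4 gave 30 of 43, leaving out vehicle replicate 3 gave 31, and leaving out both replicates numbered 4 gave 27. The medians were then -0.059, -0.060 and -0.039. With quantile normalization 28 members were negative (median -0.031), with library weights 27 (median -0.032), and after a GC correction in each library 32 (median -0.091). All tested genes moved as well: 47.1%, 51.6% and 48.5% were negative in these settings, with medians of 0.019, -0.0088 and 0.0069. Within replicates 1 and 2 alone 24 of 43 members were negative (median -0.0058), and within replicates 3 and 4 alone 36 were (median -0.23). In these splits and the fits above with libraries left out, 50.6% to 52.1% of all tested genes were negative.

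**Figure D1:**
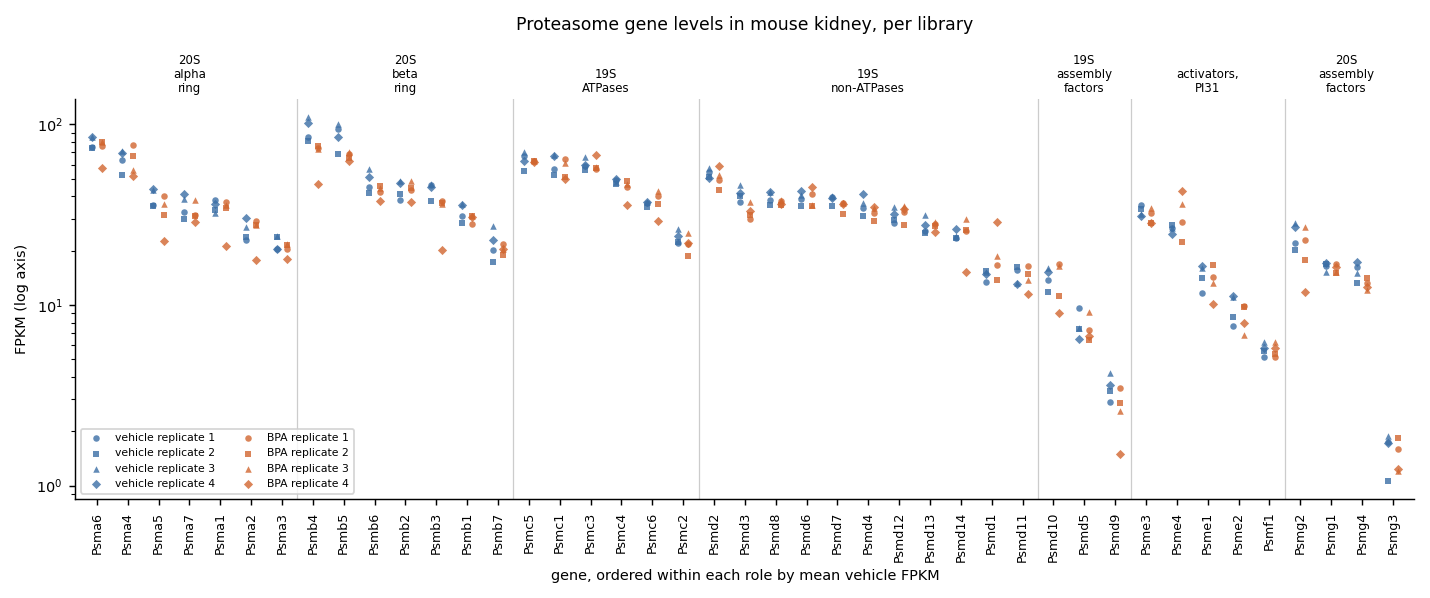
FPKM (log axis) of the 43 tested proteasome genes in each of the 8 libraries, blue for vehicle and orange for BPA, with 1 symbol per replicate number; genes are grouped by role and ordered by mean vehicle FPKM. Levels run from Psmb4 at 94.7 FPKM to Psmg3 at 1.60 FPKM in vehicle, and the orange diamond, BPA replicate 4, is the lowest point for many core subunits.

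The proteasome genes were abundant and even in vehicle kidney. Their median vehicle level was 33.2 FPKM, from 1.60 (Psmg3) to 94.7 (Psmb4), and the median coefficient of variation among the 4 vehicle libraries was 10.5%, against 16.9% for all tested genes and 12.2% for the genes of like level. Per gene length, the 19S ATPases had the highest median of the roles (54.4 FPKM), followed by the beta ring (44.0), the 19S non-ATPases (35.9) and the alpha ring (35.8). The 20S chaperones (15.9), the activators with the inhibitor (14.6) and the 19S chaperones (7.74) were lower. FPKM uses the deposited gene length, which can exceed that of a transcript: it was 3894 bases for Psma3, whose longest coding transcript is 2846 bases. The order of single genes within a role, and of the roles, is therefore approximate. The median gene length was 7230 bases for the 19S chaperones and 1201.5 for the 20S chaperones. Summed vehicle reads per gene were 1437 (Psmd10) to 3878 (Psmd5) for the 19S chaperones and 317 (Psmg3) to 1772 (Psmg2) for the 20S chaperones.

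In the alpha ring, all 7 tested alpha genes had a negative estimate, from -0.29 (Psma5) to -0.031 (Psma4), with a median of -0.13, and none passed the test. Psma5 (chr3:108256926-108279974, plus strand; coordinates here and below are those of the deposited table, on GRCm38) stood at 35.8, 35.4, 43.2 and 44.1 FPKM in vehicle replicates 1 to 4 and at 40.0, 31.7, 36.4 and 22.8 in BPA replicates 1 to 4. BPA replicate 4 was the lowest library and the groups overlapped, with a change of -0.29 ± 0.18 (SE, n = 4 per group; limma adjusted p = 0.534). It was -0.13 when BPA replicate 4 was left out. The other alpha genes lay between 22.2 ± 2.07 FPKM (Psma3, SD, n = 4) and 79.7 ± 6.17 FPKM (Psma6) in vehicle, with changes of -0.15 for Psma1, -0.04 for Psma2, -0.11 for Psma3, -0.13 for Psma6 and -0.14 for Psma7. BPA replicate 4 was below the vehicle mean for all 7, with a median deviation of -0.45, whereas the median deviations of BPA replicates 1, 2 and 3 were 0.020, -0.031 and 0.0033. Without both replicates numbered 4 the median change of the alpha ring was 0.01.

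The beta ring held 2 of the 3 members with an unadjusted p under 0.05. Psmb4, a structural beta subunit (chr3:94884093-94886961, minus strand), was the most abundant member and stood at 85.5, 81.3, 110.4 and 102 FPKM in vehicle and at 74.0, 76.0, 73.4 and 46.8 FPKM in BPA. Every BPA library lay below every vehicle library, and BPA replicate 4 lay far below the other BPA libraries. Means were 94.7 ± 13.7 and 67.5 ± 13.9 FPKM (SD, n = 4 each), a change of -0.50 with a 95% interval from -0.91 to -0.08 that did not pass limma's adjusted threshold (adjusted p = 0.408). Without vehicle replicate 3 or 4 the change of Psmb4 was -0.42 or -0.46 (limma unadjusted p = 0.0664 and 0.0584), and without both replicates numbered 4 it was -0.30 (limma unadjusted p = 0.0719).

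Psmb5 (chr14:54614119-54618022, minus strand), the chymotrypsin-like subunit and the main target of proteasome inhibitor drugs, stood at 93.8, 69.0, 100.1 and 85.3 FPKM in vehicle and at 69.0, 65.3, 70.2 and 62.6 FPKM in BPA. The groups overlapped only through vehicle replicate 2, and the BPA libraries lay close together. The change was -0.37 (95% interval -0.67 to -0.06), and limma's adjusted p was 0.408. After the GC correction the change of Psmb5 was -0.22 (limma unadjusted p = 0.109), and without vehicle replicate 1 or 3 it was -0.33 or -0.29 (limma unadjusted p = 0.0648 and 0.0651). Without vehicle replicate 3 no member was lower at an unadjusted p under 0.05, where 5.05% of all tested genes were.

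Psmb3, another structural subunit (chr11:97703399-97713500, plus strand), stood at 46.2, 37.6, 46.8 and 44.9 FPKM in vehicle and at 37.6, 37.0, 36.2 and 20.2 FPKM in BPA. BPA replicates 1, 2 and 3 lay just below the lowest vehicle library or level with it, and BPA replicate 4 was lower than all; the change was -0.45 ± 0.20 (SE; limma adjusted p = 0.459), and -0.24 when BPA replicate 4 was left out. Psmb6, the caspase-like subunit (chr11:70525367-70527858, plus strand), stood at 44.9, 41.8, 56.3 and 51.4 FPKM in vehicle and at 42.4, 45.4, 44.3 and 37.6 FPKM in BPA. Psmb7, the trypsin-like subunit (chr2:38588036-38644087, minus strand), stood at 20.1, 17.4, 27.5 and 22.9 FPKM in vehicle and at 21.9, 18.95, 20.4 and 20.3 FPKM in BPA. Both overlapped between the groups, with changes of -0.19 (limma adjusted p = 0.561) and -0.08 (limma adjusted p = 0.819); without vehicle replicate 3 they were -0.12 and, with the sign turned, 0.03. Psmb1 and Psmb2 had changes of -0.11 and -0.02, so all 7 tested beta genes had a negative estimate (median -0.19; -0.0070 within replicates 1 and 2 and -0.39 within replicates 3 and 4).

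**Figure D2:**
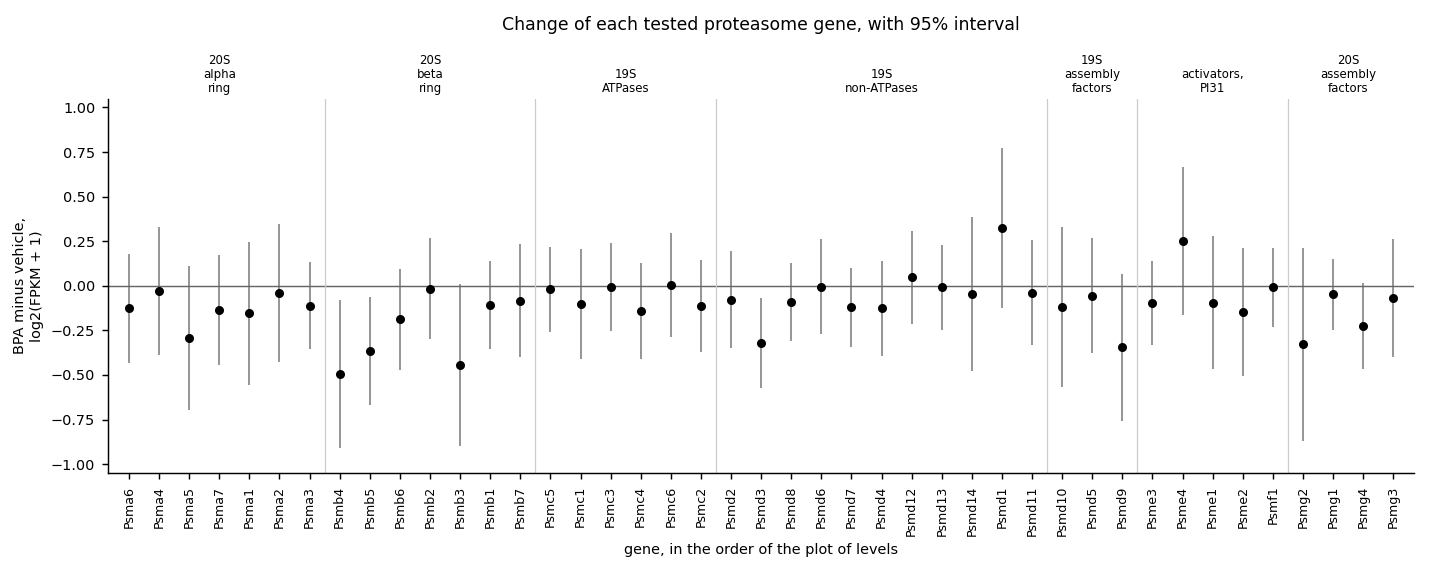
BPA minus vehicle change on the log2(FPKM + 1) scale for each of the 43 tested proteasome genes (points), with limma's 95% interval (bars), grouped by role. The bars stay within 1 log2 unit of 0, 39 points lie below 0, and the bars of Psmb4, Psmb5 and Psmd3 do not reach 0.

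Some members share long, almost identical stretches of sequence with a copy elsewhere in the genome. This matters because reads from such a stretch can be counted on either gene. How the authors handled reads with several matches is not given in the sources used here. The following 90 bases of coding sequence, bases 407 to 496 of the longest Psmb5 coding transcript in GENCODE M21 (GRCm38), show the stretch in which Psmb5 and its processed pseudogene Gm3375 (chr7:3181093-3181888, plus strand) differ most; capitals mark the 3 differing bases.
Psmb5: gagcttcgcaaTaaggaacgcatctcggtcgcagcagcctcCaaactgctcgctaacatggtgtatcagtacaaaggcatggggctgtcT
Gm3375: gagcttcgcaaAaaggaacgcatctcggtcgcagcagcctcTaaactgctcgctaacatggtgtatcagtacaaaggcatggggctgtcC
Over 796 aligned bases the pair had 8 mismatches (98.9% identity), and the longest identical run was 194 bases. Gm3375 held 42.3% of the reads of the pair and stood at 73.3, 61.3, 98.2 and 79.7 FPKM in vehicle and at 57.05, 52.9, 55.6 and 32.5 FPKM in BPA. Every BPA library was below every vehicle library, with a change of -0.66 ± 0.21 (SE; limma adjusted p = 0.374). With the copy's reads added to Psmb5, the change of Psmb5 was -0.49 (limma adjusted p = 0.373).

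The activator subunit Psme2, part of the PA28 alpha-beta ring, has a like partner in Psme2b (chr11:48945354-48946190, minus strand), shown here over bases 652 to 741 of the longest Psme2 coding transcript, again with the 3 differing bases in capitals.
Psme2: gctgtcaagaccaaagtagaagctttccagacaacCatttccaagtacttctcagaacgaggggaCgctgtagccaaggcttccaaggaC
Psme2b: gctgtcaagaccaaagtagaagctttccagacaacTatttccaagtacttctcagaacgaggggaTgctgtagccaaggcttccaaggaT
Psme2b differed from Psme2 at 5 of 794 aligned bases and held 43.9% of the reads of the pair, at 16.4 ± 3.15 FPKM under vehicle and 13.5 ± 2.21 FPKM under BPA (SD, n = 4 each), against 9.64 ± 1.81 and 8.59 ± 1.44 FPKM for Psme2. Gm13835, a processed pseudogene (chr6:31141979-31142663, minus strand), matched Psma3 without a mismatch over 665 bases of the 2846-base Psma3 transcript. It was listed at 74.8 ± 6.62 FPKM under vehicle and 76.9 ± 8.34 FPKM under BPA. Psma3 itself was listed lower, at 22.2 ± 2.07 and 20.5 ± 1.71 FPKM. FPKM divides by gene length, which was 685 bases for Gm13835 and 3894 for Psma3. In reads, Gm13835 had 7056 and Psma3 11301, so the copy held 38.4% of the pair. The levels of Psma3, Psmb5 and Psme2 are therefore uncertain by the reads placed on these copies. With 4 copies added, the change of Psma3 was -0.055, against -0.11 alone. With Psme2b added, that of Psme2 was -0.20, against -0.15 alone. The Psmb3 copies had estimates of opposite sign: Gm4950 stood at 5.98 ± 1.42 FPKM under vehicle and 10.2 ± 2.93 FPKM under BPA, and AC114990.1 at 4.18 ± 0.808 and 2.49 ± 0.647 FPKM. Neither passed limma's adjusted threshold (adjusted p = 0.374 and 0.365), and with 3 copies added the change of Psmb3 was -0.38. The 2 Psma5 copies together held 13.2% of the reads of Psma5 and its copies: Gm8394 had a change of -0.34 and Gm12989 of 0.01. The copies of Psmb3 held 7.37% in the same way. The copies described were chosen after their values were seen.

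**Figure D3:**
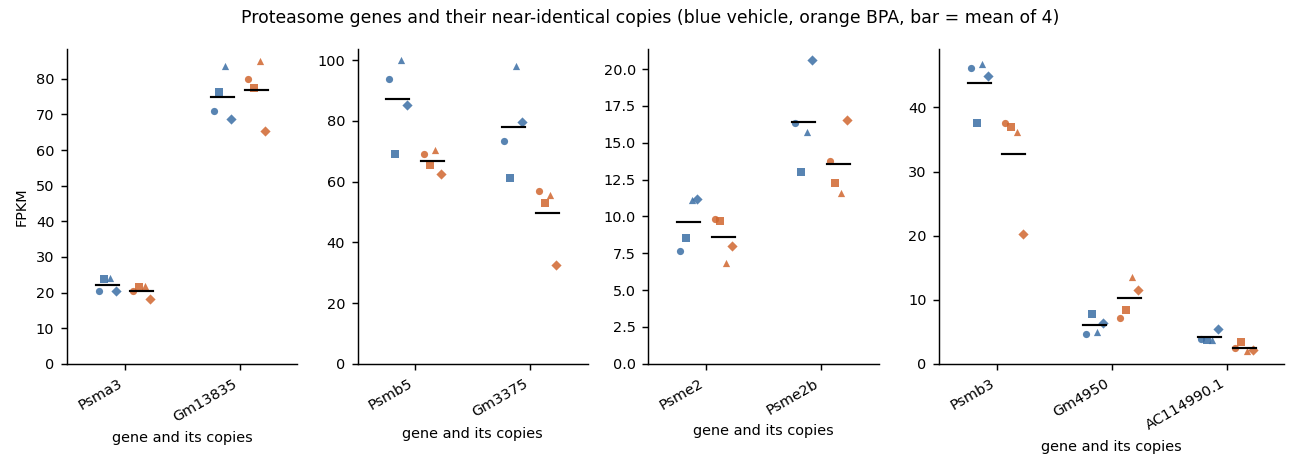
FPKM (linear axis from 0) of 4 proteasome genes and their near-identical copies in each library, blue for vehicle and orange for BPA, with a bar at each group's mean of 4. Gm13835 is listed above its parent Psma3, with a gene length of 685 against 3894 bases. Gm3375 is near its parent Psmb5 and lower in all BPA libraries (32.5 to 57.05 FPKM) than in vehicle (61.3 to 98.2 FPKM).

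Among the 19S ATPases, which unfold substrates and open the core, 5 of 6 estimates were negative and none passed the test. Vehicle levels ran from 23.7 ± 2.04 FPKM (Psmc2) to 63.7 ± 6.41 FPKM (Psmc5), and changes from -0.14 (Psmc4) to 0.0037 (Psmc6), with -0.10 for Psmc1, -0.11 for Psmc2, -0.0083 for Psmc3 and -0.02 for Psmc5. Their coefficient of variation in vehicle ran from 2.94% (Psmc6) and 3.05% (Psmc4) to 10.1% (Psmc5) and 12.4% (Psmc1). Psmc5 in BPA was 62.5 ± 0.291 FPKM, the narrowest spread among the members' BPA groups relative to their means.

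Psmd3, a scaffold subunit of the 19S lid (chr11:98682554-98695979, plus strand), had the smallest p of the members. It stood at 37.2, 40.4, 46.3 and 41.7 FPKM in vehicle and at 29.96, 31.7, 37.0 and 33.1 FPKM in BPA. Every BPA library was below every vehicle library; the nearest were BPA replicate 3 and vehicle replicate 1. BPA replicate 4 was not the lowest. The change was -0.32 ± 0.11 (SE; 95% interval -0.57 to -0.07; limma unadjusted p = 0.0180, adjusted p = 0.387). After the GC correction the change of Psmd3 was -0.19 (limma unadjusted p = 0.109), and without BPA replicate 1 or vehicle replicate 3 it was -0.28 or -0.27 (limma unadjusted p = 0.0558 and 0.0516).

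Psmd1, the large scaffold of the 19S base on which the ubiquitin receptor Adrm1 docks (chr1:86064387-86139151, plus strand), had the highest estimate. It stood at 13.5, 15.5, 15.2 and 14.9 FPKM in vehicle and at 16.6, 13.7, 18.6 and 28.8 FPKM in BPA, so that BPA replicate 4 lay far above, BPA replicates 1 and 3 just above, and BPA replicate 2 within the vehicle range. The change was 0.33 ± 0.20 (SE; limma adjusted p = 0.534), and 0.13 when BPA replicate 4 was left out. Psmd7, the inactive partner of the deubiquitinase Psmd14 (chr8:107580381-107588464, minus strand), stood at 39.7, 35.3, 40.2 and 39.2 FPKM in vehicle and at 37.0, 32.1, 36.6 and 36.1 FPKM in BPA, with overlapping groups and a change of -0.12 (limma adjusted p = 0.633) that was -0.075 without BPA replicate 2.

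The estimates of the other non-ATPase members were -0.08 for Psmd2, the other large scaffold, -0.13 for the ubiquitin receptor Psmd4, -0.0043 for Psmd6, -0.09 for Psmd8, -0.04 for Psmd11, 0.05 for Psmd12, -0.0091 for Psmd13 and -0.05 for Psmd14. Psmd12 and Psmd1 were the 2 of 11 with a positive estimate, and the median was -0.05. Of the 3377 bases of Psmd13, 342 are shared with exons of Sirt3 on the opposite strand (7.80 FPKM). Psmb7 shares 405 of 3421 bases with Nek6 (1.17 FPKM) and Psmc3 shares 215 of 2607 with Slc39a13 (4.35 FPKM) in the same way. The strand setting of the counting is not given, so reads within these shared stretches cannot be told apart.

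Of the assembly factors and regulators, none passed the test. Psmd9, a chaperone of the 19S base (chr5:123169413-123250131, plus strand), stood at 2.92, 3.33, 4.19 and 3.61 FPKM in vehicle and at 3.47, 2.85, 2.60 and 1.503 FPKM in BPA, a change of -0.35 ± 0.18 (SE; limma adjusted p = 0.494), and -0.18 when BPA replicate 4 was left out. Psmg4, a small chaperone of alpha-ring assembly (chr13:34162964-34178173, plus strand), stood at 16.3, 13.2, 15.02 and 17.2 FPKM in vehicle and at 13.2, 14.2, 12.2 and 12.5 FPKM in BPA, a change of -0.23 (limma adjusted p = 0.473) that was -0.10 after the GC correction. Both had all 4 BPA libraries below the vehicle mean, and both overlapped between groups.

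Psmg2, which pairs with Psmg1 in alpha-ring assembly, stood at 22.1, 20.1, 28.4 and 27.1 FPKM in vehicle and at 23.0, 17.8, 27.0 and 11.8 FPKM in BPA, where replicate 4 was again lowest, with a change of -0.33 ± 0.24 (SE; limma adjusted p = 0.594), and -0.11 when BPA replicate 4 was left out. Psmg3, the lowest tested member, stood at 1.74, 1.06, 1.88 and 1.71 FPKM in vehicle and at 1.59, 1.84, 1.21 and 1.23 FPKM in BPA, with 55 reads in the lowest library. Its change of -0.07 (limma adjusted p = 0.863) turned to 0.01 with library weights. Psmg1 had -0.05, and the 19S chaperones Psmd5 and Psmd10 had -0.06 and -0.12.

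Psme4, the single-chain activator PA200 (chr11:30771726-30880361, plus strand), stood at 26.8, 27.7, 26.6 and 24.8 FPKM in vehicle and at 28.9, 22.4, 36.2 and 42.9 FPKM in BPA. BPA replicates 3 and 4 were the highest libraries and BPA replicate 2 the lowest, and the change was 0.25 ± 0.18 (SE; limma adjusted p = 0.596). Leaving out BPA replicate 4 gave 0.11, and leaving out BPA replicate 2 gave 0.41. The changes of the other activators were -0.10 for Psme1, -0.15 for Psme2 and -0.10 for Psme3, and that of the inhibitor Psmf1 was -0.0083.

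BPA replicate 4 was low across most roles. It was the lowest of the 8 libraries for 22 of 43 members and for 12 of 14 core members, and the highest for 5 members and 0 core members. Of all tested genes, 28.0% were lowest and 24.1% highest there, so the library was extreme in both directions. The summed level of the core genes was 474 FPKM in BPA replicate 4, 611 to 628 FPKM in the other BPA libraries and 590 to 748 FPKM in vehicle. The summed level of the 17 cap subunits was 626 FPKM there, within the 592 to 658 FPKM of the other BPA libraries. The median deviation from the vehicle mean in this library was -0.40 for the core, -0.10 for the cap, -0.60 for the 19S chaperones (3 of 3 below), -0.24 for the 20S chaperones (4 of 4 below) and -0.21 for the activators with the inhibitor (3 of 5 below). Differences between roles were not tested.

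**Figure D4:**
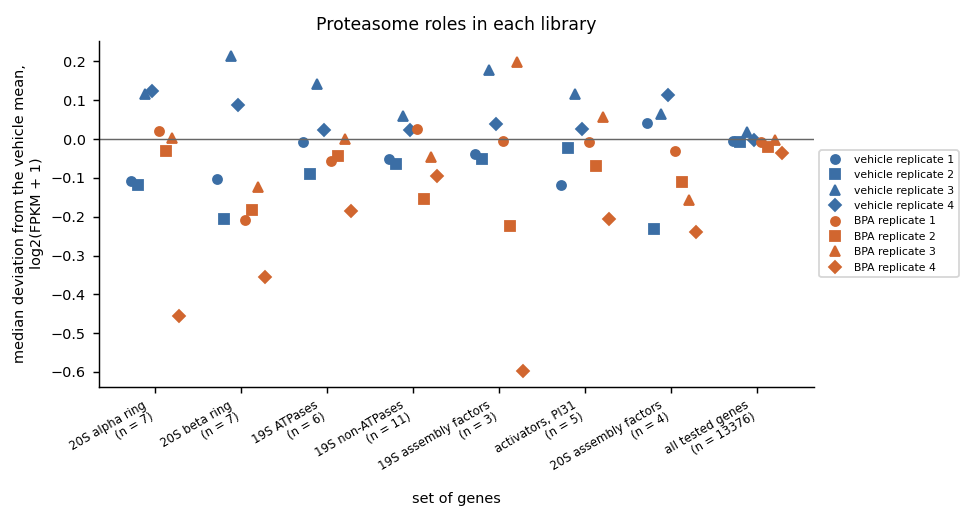
Median deviation of each role from the vehicle mean on the log2(FPKM + 1) scale, 1 point per library (blue vehicle, orange BPA), beside the same for all 13376 tested genes. In the 20S alpha ring BPA replicate 4 lies at -0.45 while the other BPA libraries lie near 0, and vehicle replicates 3 and 4 lie above replicates 1 and 2.

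The vehicle libraries differed among themselves as well. Vehicle replicates 3 and 4 were above the vehicle mean for 35 and 34 of 43 members, and vehicle replicates 1 and 2 for 14 and 6. Vehicle replicates 3 and 4 are also those with low podocyte markers and with 5.63 and 8.10 FPKM over 4 endothelial genes, against 19.6 and 22.8 in vehicle replicates 1 and 2. Vehicle replicate 4 had 192 FPKM over 4 thick ascending limb genes, against 508 to 633 in the other vehicle libraries. It carries the lymphocyte and muscle markers given above, and vehicle replicates 2 and 4 carry the fat markers. The part of all these markers in the member levels was not tested. Gene length and base composition moved with the deviations too. Across the 43 members, the deviation of BPA replicate 4 had a Spearman rho of 0.33 with gene length and 0.038 with GC content, and across all tested genes of 0.41 and -0.24. With gene length the members' rho was 0.51 in vehicle replicate 2 and -0.46 in vehicle replicate 4. For BPA replicates 1 and 3 the rho with GC content was -0.57 and -0.47 across members, and -0.40 and -0.38 across all genes. These are descriptions across genes that share a library, and genes are not independent replicates. Psmd1 and Psme4, the members that were highest in BPA replicate 4 with a positive estimate, have long genes in the table (7265 and 8382 bases, against a median of 2808). Psmd9 and Psmd5, at 7248 and 7230 bases, were below their vehicle means in that library (1.503 against 3.51 FPKM and 6.77 against 7.74 FPKM). The part of length in the values of these genes was not tested.

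**Figure D5:**
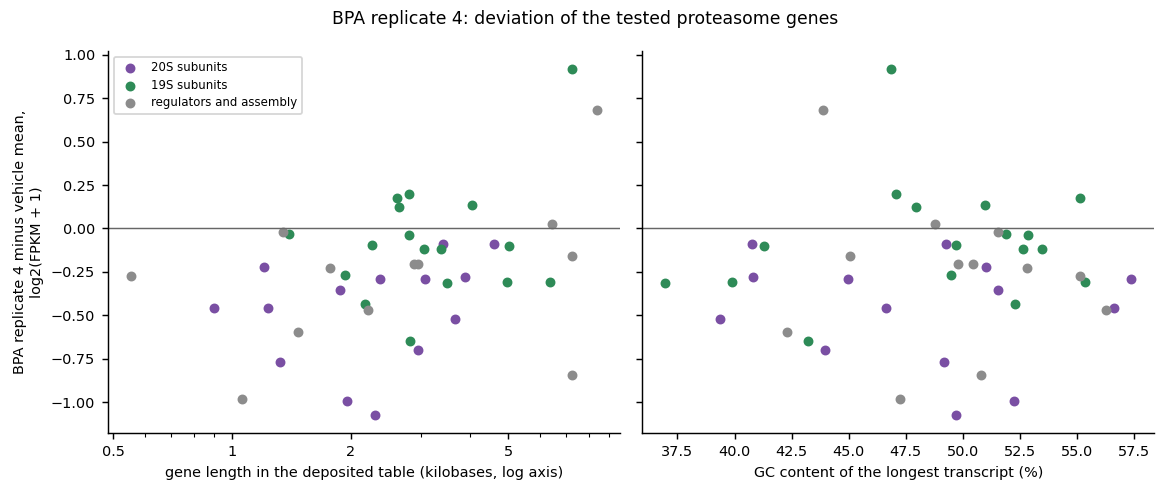
Deviation of BPA replicate 4 from the vehicle mean on the log2(FPKM + 1) scale for each tested proteasome gene, against gene length in kilobases (left, log axis) and transcript GC content in percent (right), coloured by 20S core, 19S cap and other members. All 14 core genes lie below 0, and Psmd1 and Psme4 are the highest points, at the long end of the length axis. Psmd9 and Psmd5, also at the long end, lie below 0.

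The immunoproteasome subunits, which replace the catalytic beta subunits in immune cells and after interferon, were low. Psmb8 stood at 1.56, 1.10, 1.30 and 3.35 FPKM in vehicle and at 1.41, 1.60, 1.12 and 1.24 FPKM in BPA. For Psmb9 the vehicle values were 1.12, 1.19, 0.600 and 2.71 FPKM and the BPA values 0.740, 1.59, 0.806 and 0.695 FPKM. For Psmb10 they were 4.23, 4.20, 4.93 and 6.15 FPKM and 4.33, 4.62, 1.87 and 1.85 FPKM. Vehicle replicate 4, the library with lymphocyte markers, was highest for all 3, and the part of those cells in it was not tested. The ratio of mean FPKM put Psmb8 at 2.10% of Psmb5 in vehicle and 2.01% in BPA, Psmb9 at 2.89% and 2.26% of Psmb6, and Psmb10 at 22.2% and 15.5% of Psmb7. These percentages depend on the deposited gene lengths: Psmb7 has 3421 bases there, against 1160 in its longest coding transcript. In vehicle reads Psmb10 had 572 and Psmb7 5135. Reads placed on the copy Gm3375 are not counted in Psmb5. The mean log2 ratios per library differed between BPA and vehicle by 0.07, -0.21 and -0.63, with 2-sided exact permutation p of 0.943, 0.714 and 0.229 (adjusted over the 3 ratios, 0.943, 0.943 and 0.686), where the smallest possible p is 0.0286. For Psmb8 the ratio of means and the mean log2 ratio thus differ in sign. Psmb10 was lower in BPA replicates 3 and 4 than in all other libraries, and BPA replicates 1 and 2 lay within the vehicle range.

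None of the other genes around the proteasome passed limma's adjusted threshold. Of 12 tested proteasome-associated proteins, 7 had a negative and 5 a positive estimate. Adrm1 stood at 27.8, 23.6, 28.6 and 26.0 FPKM in vehicle and at 17.6, 16.3, 21.6 and 11.5 FPKM in BPA, with every BPA library lower, a change of -0.66 ± 0.17 (SE) and a limma adjusted p of 0.355. Uchl5, the deubiquitinase that Adrm1 recruits, had the opposite sign, at 6.32, 6.53, 7.21 and 6.70 FPKM in vehicle and 7.67, 7.48, 9.80 and 9.09 FPKM in BPA, with every BPA library higher, a change of 0.30 and a limma adjusted p of 0.403. GC content was 55.4% for Adrm1 and 39.2% for Uchl5. Across all tested genes the change had a Spearman rho of -0.40 with GC content. The part of GC content in these 2 changes was not tested.

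Of 14 tested regulators of proteasome expression and substrate supply, 10 had a negative estimate. The 2 with the smallest p were Syvn1, the ubiquitin ligase of endoplasmic reticulum quality control (12.8 ± 1.58 FPKM in vehicle, 8.83 ± 1.44 in BPA, change -0.49), and Maff, a small MAF partner of NRF factors (2.09 ± 0.702 and 0.765 ± 0.461 FPKM, change -0.82), both with a limma adjusted p of 0.365. Among 11 tested ubiquitin genes, activating enzymes and shuttle proteins, 8 had a negative estimate, and the smallest p were those of the shuttle Ubqln4 (change -0.27, limma adjusted p = 0.438) and the activating enzyme Uba6 (change 0.33, limma adjusted p = 0.471). Nfe2l1 and Nfe2l2, named after their values were seen, had changes of -0.04 and -0.06.

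The promoters of the members were read for 3 motifs known as binding sequences of NRF factors with small MAF partners, of NF-Y and of ETS factors. RefSeq windows of 300 bases on GRCm38.p6, from 250 before to 50 after the annotated start, were matched for 37 of 45 members. The antioxidant response element core TGACNNNGC, searched on both strands as were the others, occurred in 6 of 37 member promoters (16.2%), against 14.8% of 9126 promoters. CCAAT occurred in 13 (35.1%) against 38.2%, and CCGGAAG, an ETS core, in 13 (35.1%) against 18.8%. The 6 windows with the response element are shown 5′ to 3′ on the gene's strand, with the match in capitals.
Psmb5, chr14:54618022-54618054, minus strand: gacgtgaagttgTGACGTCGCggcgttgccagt
Psmb6, chr11:70525336-70525368, plus strand: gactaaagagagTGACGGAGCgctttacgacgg
Psmc6, chr14:45329585-45329617, plus strand: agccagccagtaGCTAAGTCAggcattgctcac
Psmd9, chr5:123228147-123228179, plus strand: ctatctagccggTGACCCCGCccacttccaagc
Psmd12, chr11:107479278-107479301, plus strand: tctGCTGTGTCAcatttgcccccc
Psme4, chr11:30771756-30771788, plus strand: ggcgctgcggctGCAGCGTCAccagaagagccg
The matches of Psmb5, Psmb6, Psmd9 and Psme4 began 47, 9, 31 and 7 bases before the annotated start, and those of Psmc6 and Psmd12 lay 227 and 247 bases before it. The RefSeq start of Psmd9 lies 58777 bases inside the gene as the table gives it. The 6 genes did not share a direction: 3 had a negative and 3 a positive estimate, from -0.37 (Psmb5) to 0.25 (Psme4), with a median of -0.09. The 30 tested members without a match had a median of -0.10, and 29 of them were negative. The medians were thus close while the sign counts differed, and the difference was not tested. The whole windows of Psmb5 and Psme4, the members with a match at the ends of that range, are these.
Psmb5, chr14:54617946-54618245, minus strand: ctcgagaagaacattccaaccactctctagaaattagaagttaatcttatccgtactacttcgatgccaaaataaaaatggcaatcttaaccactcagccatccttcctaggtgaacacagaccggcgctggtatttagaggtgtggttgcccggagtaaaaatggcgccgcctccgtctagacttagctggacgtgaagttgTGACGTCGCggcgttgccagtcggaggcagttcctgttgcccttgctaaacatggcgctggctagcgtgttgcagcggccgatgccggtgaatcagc
Psme4, chr11:30771525-30771824, plus strand: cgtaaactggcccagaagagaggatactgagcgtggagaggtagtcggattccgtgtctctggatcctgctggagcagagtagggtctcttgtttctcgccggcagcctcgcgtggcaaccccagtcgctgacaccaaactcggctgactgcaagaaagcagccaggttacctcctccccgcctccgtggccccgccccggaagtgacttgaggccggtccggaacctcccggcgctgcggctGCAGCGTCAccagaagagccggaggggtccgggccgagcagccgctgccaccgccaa

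The ETS core was found in cap, activator and chaperone promoters and in no core promoter of those matched. Examples near the start, with the match in capitals, are the following.
Psmc1, chr12:100110162-100110192, plus strand: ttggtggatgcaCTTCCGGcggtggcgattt
Psmd2, chr16:20651614-20651644, plus strand: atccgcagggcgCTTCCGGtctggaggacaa
Psmd13, chr7:140882376-140882406, plus strand: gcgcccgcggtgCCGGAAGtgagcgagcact
Psmd6, chr14:14120972-14121002, minus strand: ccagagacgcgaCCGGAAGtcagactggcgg
Psmg3, chr5:139826872-139826902, minus strand: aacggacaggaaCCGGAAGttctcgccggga
The 13 members with this match had a median change of -0.05 (10 negative), and the 23 without had a median of -0.13 (22 negative). These 2 sets also differ in role, since only the second holds core genes. Over all tested core and cap genes the medians were -0.13 and -0.05. Match and role cannot be told apart here, and the difference was not tested. The 12 tested members with CCAAT had a median of -0.115 and the 24 without one of -0.06. A match is a description of these letters in this window and was not tied to binding.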

How the data were processed

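Polyadenylated RNA of 8 kidney libraries was analysed, 4 labelled BPA and 4 labelled vehicle. The authors deposited 1 table of FPKM per gene, computed from their reads. DESeq2 1.20.0 and GRCm38 stand in the submitters' processing notes without a role. Neither the aligner nor the counter is given in the sources used here. Columns named C with a number were read as the vehicle libraries, since the labels hold no further group. Whole reads could be recovered from the FPKM and gene lengths: 100% of values up to 20 reads came out whole within 0.01 reads. Depth limits the lowest members most, and intervals cover the spread between libraries.

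Changes were fitted over all 13376 genes with a mean of at least 0.5 FPKM, as log2(FPKM + 1), with limma 3.58.1 in R 4.3.3 (trended, robust variance, no covariate) and Benjamini-Hochberg adjustment over all of them. On this scale the change of low genes is understated. With limma-voom on those reads, 0 genes were called. Immunoproteasome ratios used log2 with 0.1 FPKM added and a 2-sided exact permutation test over 70 assignments. Copies were found with blastn 2.17.0 among GENCODE M21 transcripts (at least 95% identity over 200 bases), and GC content came from the longest transcript. Of these steps, only the limma fit was tried on simulated data.

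The members, lists, roles and tests were chosen with earlier results of these data known. Values in all libraries were given for the 12 tested members with the smallest p, the catalytic subunits, the highest and lowest members and the immunoproteasome subunits, and from each list of other genes the 2 with the smallest p were named. Paaf1 and Ddi1, on those lists, were not tested. Alternatives changed the pseudocount, filter, scaling, weighting, variance, gene set, block, GC correction and libraries used. Adding copies to their parents and the splits within replicates 1 and 2 and within 3 and 4 were chosen after seeing the data.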

Additional observations from a re-analysis of the deposited data

Results flagged for a closer look

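In 9 of 98 groups of 4 libraries examined, the most extreme library lay apart from the others by more than Dixon's 95% critical value allows, a gap that chance gives in about 1 in 20 groups. BPA replicate 4 accounted for 5 of the 9. It was low for the core genes Psma2 (17.8 FPKM against 27.7 to 29.0 in the other BPA libraries), Psma6 (57.8 against 76.4 to 79.7), Psmb3 (20.2 against 36.2 to 37.6) and Psmb4 (46.8 against 73.4 to 76.0), and high for the cap ATPase Psmc3 (68.1 against 56.5 to 58.1). BPA replicate 1 was low for Psmb1 (28.3 against 30.8 to 31.3), and vehicle replicate 2 was low for Psmc6 (35.0 against 36.9 to 37.3). BPA replicate 2 was high for Psmb9, at 1.59 FPKM against 0.695 to 0.806, and therefore also for the log2 ratio of Psmb9 to Psmb6, at -4.75 against -5.66 to -5.57.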

How the results depend on the processing

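No member was called under any of the 25 alternatives. Genes called over the whole table numbered 1 in the fit reported; they were 8 with library weights, 0 with limma-voom, 0 among protein-coding genes only, 2 with a term for replicates 1 and 2 against 3 and 4, 0 to 4 when 1 library was left out, 2 within replicates 1 and 2, and 0 within the pairs numbered 3 and 4. Members lower at an unadjusted p under 0.05 (3 as reported) were 1 after GC correction, 1 without both replicates numbered 4, 1 within replicates 1 and 2, and 0 to 5 when 1 library was left out, with 0 without vehicle replicate 3 and 5 without vehicle replicate 2. The share of all tested genes (6.83% as reported) was 4.08% after GC correction, 5.32% without both replicates numbered 4 and 5.69% within replicates 1 and 2. It was 5.05% without vehicle replicate 3 and 7.15% without vehicle replicate 2. Members higher were 0 to 2 when 1 library was left out (2 without BPA replicate 2), and 1 within each split. Of all 13376 tested genes, 674 were higher without BPA replicate 2, 690 within replicates 1 and 2 and 572 within replicates 3 and 4. The median change of the members (-0.10) was -0.23 within replicates 3 and 4, -0.0058 within replicates 1 and 2, -0.039 without both replicates numbered 4, -0.031 with quantile normalization and -0.032 with library weights. The median of all tested genes was 0.019 with quantile normalization and -0.021 to -0.0035 in the rest of these settings. Psmb7 ranged from -0.19 to 0.026 when 1 library was left out, positive without vehicle replicate 3, and Psmg3 was 0.013 with library weights and 0.0015 without both replicates numbered 4. The ratio of Psmb8 to Psmb5 ranged from -0.11 to 0.40 when 1 library was left out. The ratio of Psmb9 to Psmb6 ranged from -0.59 to 0.12 in the same way and was 0.18 without both replicates numbered 4. The cause of these shifts was not tested, beyond fewer libraries or genes where the alternative itself removes them. Depth limits Psmg3, Psmb8 and Psmb9 most.

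The labels do not say whether the replicate numbers pair the libraries. The correlation of same-numbered deviations was 0.14, 0.019, 0.14 and -0.033. Vehicle replicates 1 and 3, but not 2 and 4, correlated best with their own number. No clear pairing was seen, and such weak correlations cannot decide whether the numbers pair libraries. With the number as a replicate block, 0 genes were called over the whole table. At an unadjusted p under 0.05, 3 members and 6.60% of all tested genes were lower.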

Other observations

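Ubb, a polyubiquitin gene, encodes the tag that the proteasome reads. It stood at 501, 449, 454 and 547 FPKM in vehicle and at 478, 401, 359.7 and 208 FPKM in BPA. All 4 BPA libraries lay below the vehicle mean, the groups overlapped, and the gene did not pass the adjusted threshold (limma adjusted p = 0.478). The core assembly factor Pomp stood at 14.4, 13.3, 16.3 and 15.4 FPKM in vehicle and at 15.6, 15.2, 13.9 and 8.47 FPKM in BPA, and Sem1, a small cap subunit outside the Psm naming, at 10.1, 8.42, 12.8 and 10.3 and 9.66, 10.1, 7.01 and 2.80 FPKM. BPA replicate 4 was the lowest library for both, and neither passed (limma adjusted p = 0.695 and 0.527). These genes were picked after their values were seen.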
